A study of Mus musculus with 36 samples.

Results

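A set of 8 genes that mark neural progenitor cells (NPCs) was followed across 9 lists of ChIP-seq peaks, ChIP-seq being the sequencing of DNA that is precipitated together with a chromatin protein. The genes were Nes, Vim, Fabp7, Sox1, Sox9, Pax6, Olig1 and Olig2, 8 of 22368 genes examined, and a peak was assigned to a gene where its midpoint lay within 50 kb of the gene body on the mouse assembly mm9. Of 104813 peaks in all lists, 65 lay in these windows. The question was whether the nucleosome remodeling and deacetylase (NuRD) complex, followed through its subunits MBD3 and CHD4, was found near these genes in mouse embryonic stem cells (ESCs), in NPCs or in both. The ESCs were wild-type R1 cells grown in serum and LIF with 2i, a pair of kinase inhibitors that keeps ESCs undifferentiated, and they gave 2 lists for each subunit. The NPCs were derived from R1 ESCs in culture, kept in NPC medium, and gave 1 list for each subunit, so that no spread between NPC samples can be given. Further ESC lists held SIN3A, which belongs to a separate histone deacetylase complex, from chromatin with and without a spike-in, and GFP-tagged ZFP296, precipitated through GFP from a line labelled as R1 ESCs with a ZFP296 BAC (bacterial artificial chromosome). In the methods of the study the tagged protein was instead expressed from a construct in KH2 ESCs, and the line was taken here as labelled.

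NuRD joins an ATP-dependent remodeler, CHD4, to histone deacetylases and to MBD3, and is known for tuning the expression of developmental genes as ESCs leave pluripotency. Neural progenitors are recognised by the intermediate filament proteins nestin (Nes) and vimentin (Vim), by the fatty acid-binding protein FABP7 of radial glia, by the transcription factors SOX1, SOX9 and PAX6, and, for the progenitors of oligodendrocytes and some neurons, by the basic helix-loop-helix factors OLIG1 and OLIG2. A peak near a gene marks a place where the protein was found and is not a measure of the gene's expression.

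The sequences below are the central 200 bases of an NPC peak of Nes, Vim and Sox9, the members with an NPC peak, namely the MBD3 peak at Nes, which overlaps the highest NPC CHD4 peak there, and the highest CHD4 peak at Vim and at Sox9. They are followed by a pair of ESC peaks at Pax6 and Sox1 that were added after their values were seen because both genes had ESC peaks and 0 NPC peaks. Capitals mark a match, on either strand, to the AP-1 string TGAGTCA or TGACTCA, which are reverse complements of each other, or to the E-box CAGCTG. The SOX (CCATTGT), octamer (ATGCAAAT) and NFI palindrome strings were searched on both strands as well and were not found in these 5 sequences.
Nes, NPC MBD3 peak (chr3:87790824-87791023, + strand): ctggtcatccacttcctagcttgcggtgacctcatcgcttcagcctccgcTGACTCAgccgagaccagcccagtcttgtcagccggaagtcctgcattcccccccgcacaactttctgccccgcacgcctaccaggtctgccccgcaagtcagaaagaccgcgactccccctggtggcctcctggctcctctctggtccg
Vim, NPC CHD4 peak (chr2:13448351-13448550, + strand): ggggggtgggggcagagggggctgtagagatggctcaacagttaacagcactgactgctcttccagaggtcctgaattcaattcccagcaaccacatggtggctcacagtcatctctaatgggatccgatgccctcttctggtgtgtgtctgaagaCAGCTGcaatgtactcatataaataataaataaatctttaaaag
Sox9, NPC CHD4 peak (chr11:112685567-112685766, + strand): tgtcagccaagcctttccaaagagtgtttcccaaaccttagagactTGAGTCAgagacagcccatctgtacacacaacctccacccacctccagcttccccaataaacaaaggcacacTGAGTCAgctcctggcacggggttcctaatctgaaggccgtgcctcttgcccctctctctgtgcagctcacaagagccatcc
Pax6, CHD4 peak of ESC replicate 2 (chr2:105517606-105517805, + strand): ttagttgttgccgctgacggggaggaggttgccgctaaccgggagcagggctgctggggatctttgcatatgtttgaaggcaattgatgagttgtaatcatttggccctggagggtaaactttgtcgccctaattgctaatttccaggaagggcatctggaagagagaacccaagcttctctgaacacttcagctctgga
Sox1, CHD4 peak of ESC replicate 2 (chr8:12439724-12439923, + strand): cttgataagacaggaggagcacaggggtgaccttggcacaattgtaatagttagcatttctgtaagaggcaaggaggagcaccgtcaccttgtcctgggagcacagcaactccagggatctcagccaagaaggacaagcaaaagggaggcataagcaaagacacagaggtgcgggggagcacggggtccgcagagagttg

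The Nes sequence holds 1 AP-1 string and the Sox9 sequence holds 2. The Vim sequence, in an intron of Trdmt1, holds 1 E-box. The Pax6 and Sox1 sequences hold 0 of the 5 strings. The share of all peaks with each string is given with the strings of the other peaks further on.

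The lists held between 2304 and 29974 peaks. ESC MBD3 replicates 1 and 2 had 2344 and 7551 peaks, ESC CHD4 replicates 1 and 2 had 11712 and 29974, and NPC MBD3 and CHD4 had 2304 and 20234. The names given to the peaks in CHD4 replicate 2 of ESCs mention a Zfp219 BAC, whereas the sample is labelled wild type, so the presence classes, the merged regions and the overlap with SIN3A are also given without it. Each peak has a value that the authors gave on a −log10 scale, and it is used here to rank peaks within a list by the percentage of the list's peaks with a value at least as high.

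NPC CHD4 peaks lay near 3 of 8 genes, with 8 peaks at Nes, 6 at Vim and 1 at Sox9, whereas 57.9% of all genes had at least 1 NPC CHD4 peak in the same window. The NPC MBD3 list gave a single peak, at Nes, a share of the 8 genes near the 15.7% of all genes that had one. In ESCs, CHD4 peaks of replicate 1 were found at Sox1, with 5 peaks, where 43% of all genes had a peak in that list. CHD4 replicate 2, with a peak at 67.7% of all genes, gave 9 peaks at Sox1, 5 at Nes, 3 at Vim, 2 at Pax6 and 1 at Olig1. MBD3 replicate 1 gave 2 peaks at Sox1 and 1 that lay in the windows of both Olig1 and Olig2, and MBD3 replicate 2 gave 1 at Sox9 and 1 at Pax6, in lists that had a peak at 15.8% and 33.1% of all genes. CHD4 peaks were thus more frequent in NPCs at Nes and Vim and in ESCs at Sox1, genes picked here by their counts. These differences did not pass the test across all genes that follows. Fabp7 and Olig2 had 0 CHD4 peaks, and Sox9, Pax6 and Olig1 had 1 or 2 in a single list. SIN3A peaks were found at Nes, Vim and Sox1 without spike-in (65.1% of all genes) and at these and Pax6 with it (59.2%), and ZFP296 peaks at 0 of the 8 genes against 21.9% of all genes.

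**Figure D1:**
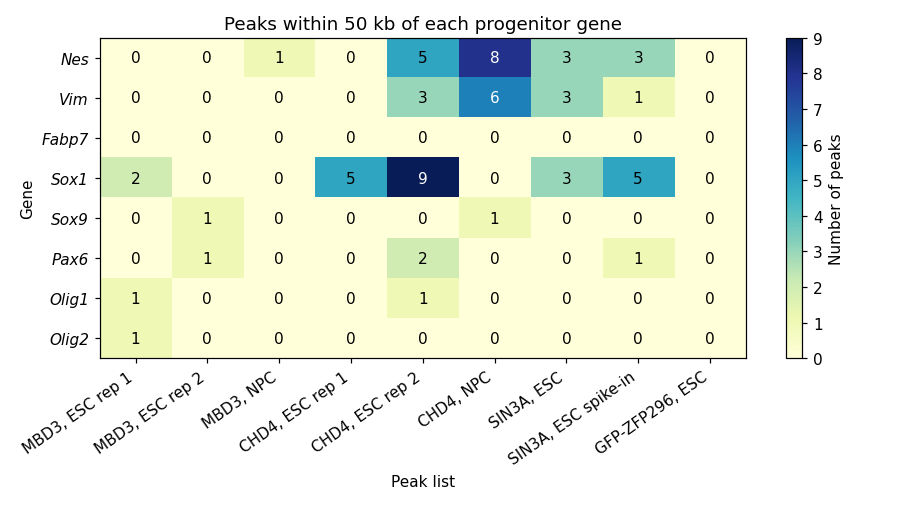
Number of peaks with a midpoint within 50 kb of each of the 8 genes (rows) in each of the 9 lists (columns), with colour and the printed digit giving the same count. CHD4 peaks at Nes and Vim are most numerous in NPCs (8 and 6), all MBD3 and CHD4 peaks at Sox1 belong to ESC lists, and Fabp7 has 0 peaks in every list.

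To ask whether a gene held a larger part of the NPC list than of the ESC list, the peaks at the gene were set against all other peaks of each list with a two-sided Fisher's exact test, once against each ESC replicate, and p-values were adjusted by Benjamini-Hochberg over all genes with a peak in either list. A gene was called where the adjusted p was under 0.05 in the same direction against both replicates. This compares lists and their counting error, not conditions, because there is 1 NPC list, and neighbouring peaks need not be independent. For CHD4, 0 of the 8 genes were called. Of 15006 genes tested against both replicates, 9 (0.06%) were called higher and 92 (0.613%) lower in NPCs. Without adjustment, 2 of the 8 genes (Nes and Sox1) had an exact p under 0.05 against replicate 1 and 1 (Sox1) against replicate 2. Among genes with a peak in either list, 1659 of 15095 and 1880 of 17065 did, 11% in each of these comparisons. Fabp7 and Olig2 had no peak to test in either comparison, and Pax6 and Olig1 had no peak to test against replicate 1. For MBD3, 0 of the 8 genes and 0 of 5532 genes tested against both replicates (0%) were called in either direction. Of the 8 genes only Nes had a peak to test against both replicates. With 1 NPC peak and 0 in ESCs, its exact p was 0.496 and 0.234 before adjustment. With a single peak Nes could not have reached the threshold, and the other genes could not be called either. The count of 0 therefore says little about any of the 8 genes. Before adjustment 0 of the 8 genes passed 0.05 for MBD3, and 33 of 6030 genes (0.547%) did against ESC replicate 1 and 160 of 9091 (1.76%) against replicate 2. Between the ESC replicates the same Fisher's exact test called 0 genes for either subunit. Of the genes tested, 1.41% for CHD4 and 0.707% for MBD3 had an unadjusted p under 0.05, with 0 of the 8 genes among them.

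Sorted by presence alone, CHD4 peaks were found in NPCs only at 1 of the 8 genes (Sox9), in ESCs only at 3 (Sox1, Pax6 and Olig1), in both at 2 (Nes and Vim) and in neither at 2 (Fabp7 and Olig2). Over all genes these classes held 8.06%, 18.8%, 49.9% and 23.3%. The class of Sox9 rests on the window edge, because CHD4 peaks of both ESC replicates lay 52.0 and 52.3 kb from the gene. MBD3 peaks were found in NPCs only at 1 gene (Nes), in ESCs only at 5 (Sox1, Sox9, Pax6, Olig1 and Olig2), in both at 0 and in neither at 2 (Vim and Fabp7), beside 6.81%, 27.2%, 8.88% and 57.1% of all genes. The ESC class depends on the replicate. At 0 of the 5 genes with an ESC MBD3 peak did both replicates have one, whereas 35.6% of the genes with a peak in either MBD3 list had peaks in both. For CHD4 both replicates had peaks at 1 of 5 such genes, Sox1, and at 61.3% of the genes with a peak in either ESC CHD4 list. Without ESC CHD4 replicate 2, Nes and Vim joined Sox9 with CHD4 peaks in NPCs only, making 3 of 8 genes beside 24.5% of all genes, and Pax6 and Olig1 had them in neither cell type, leaving 1 of 8 in ESCs only beside 9.54%.

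Nes, which encodes the intermediate filament protein after which neural stem cells are usually stained, lies on chr3:87775000-87784373 on the + strand. Its window also holds Mrpl24, Rrnad1, Isg20l2, Crabp2, Bcan and Hapln2. CHD4 peaks numbered 0 in ESC replicate 1, 5 in ESC replicate 2 and 8 in NPCs, which is 0, 0.167 and 0.395 per 1000 peaks of each list. The NPC count was the highest of the 3, and 3.48% of all genes had at least 8 NPC CHD4 peaks. By Fisher's exact test the unadjusted p was 0.0307 and the adjusted p 0.352 against replicate 1, and 0.157 and 0.618 against replicate 2. The nearest CHD4 peak of ESC replicate 1 lay 65.1 kb from Nes, with a value of 28.9, in the top 0.973% of its list. In a window of 100 kb the CHD4 counts were 5, 12 and 13, and the larger of both adjusted p-values of the same test was 0.950. Chromosome 3 as a whole held 8.43% of NPC CHD4 peaks and 9.94% of NPC MBD3 peaks, against 3.92% to 4.82% in the ESC MBD3 and CHD4 lists. Counted against the peaks of chromosome 3 alone, a comparison added after the data were seen, the exact p for CHD4 at Nes was 0.216 and 1 before adjustment, and 0.909 and 1 after it.

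The single site of the 8 genes where NPC MBD3 and CHD4 peaks overlapped lay 15.9 kb downstream of the Nes start, in intergenic sequence between Nes and Bcan. The MBD3 peak covered chr3:87790801-87791046 with a value of 15.0 and ranked in the top 10.2% of its list. The CHD4 peak covered chr3:87790745-87791116 with a value of 30.6, in the top 1.11% of NPC CHD4 peaks. ESC MBD3 and CHD4, SIN3A and ZFP296 lists had 0 peaks there, and the AP-1 string printed above lies within both NPC peaks.

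Other Nes peaks were shared with ESCs. At the Nes start an NPC CHD4 peak (value 8.70) overlapped SIN3A peaks of ESCs without (10.3) and with spike-in (8.92), and ESC MBD3 and CHD4 had 0 peaks. In an intron of Nes, about 3.4 kb from the start, CHD4 of ESC replicate 2 (4.0), CHD4 of NPCs (11.1) and SIN3A without (16.3) and with spike-in (6.67) met in chr3:87778298-87778552. This was the region of Nes that most lists had in common. A pair of further intergenic regions, 35.3 kb from the Nes start and 57.0 kb from it near the start of Hapln2, which encodes a hyaluronan link protein, had peaks in ESC CHD4 replicate 2 (12.1 and 17.8) and in NPC CHD4 (15.1 and 27.8). The remaining NPC peaks, with values from 4.08 to 8.13, lay near Crabp2, a retinoic acid-binding protein gene, and between it and Nes. Merged over the lists, SIN3A included, the window of Nes had 11 regions. Of these, 3 were found in ESC lists, 4 in NPC lists and 4 in lists of both.

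Vim, which encodes the intermediate filament protein of progenitors, glia and mesenchymal cells, lies on chr2:13495554-13504453 on the + strand. Here CHD4 peaks numbered 0 in ESC replicate 1, 3 in ESC replicate 2 and 6 in NPCs, or 0, 0.10 and 0.297 per 1000 peaks of each list, and all MBD3 lists had 0. At least 6 NPC CHD4 peaks were found at 7.77% of all genes. Fisher's exact p was 0.0921 against replicate 1 and 0.171 against replicate 2, with adjusted p of 0.624 and 0.632. The peak closest to the gene was shared by ESC CHD4 replicate 2 (value 7.72) and NPC CHD4 (8.55) and lay in intergenic sequence about 1.5 kb upstream of the Vim start (chr2:13493907-13494117). SIN3A peaks of ESCs lay at the start of Vim itself, with a highest value of 15.4 without spike-in and 5.86 with it, and did not overlap these CHD4 peaks. Another shared region, at the start of Trdmt1, a tRNA methyltransferase gene, had values of 11.2 in ESC replicate 2 and 9.09 in NPCs. The highest NPC peak in the window, with a value of 12, lay 47.1 kb upstream in an intron of Trdmt1 and is the Vim sequence printed above. Most of the CHD4 peaks assigned to Vim thus lay closer to Trdmt1 or to the predicted gene Gm9875 than to Vim.

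Sox1, the SOXB1-family transcription factor gene that is switched on early in neural induction, showed the opposite distribution. It has no record in the GENCODE vM1 annotation, and its start was placed at chr8:12395519 on the + strand by the only exact match of its 300-base RefSeq promoter sequence, so that its window spans 50 kb on either side of the start. The position lies in an intron of the annotated gene Gm5607. CHD4 peaks numbered 5 in ESC replicate 1, 9 in ESC replicate 2 and 0 in NPCs, which is 0.427, 0.300 and 0 per 1000 peaks of each list. MBD3 peaks numbered 2, 0 and 0. Both ESC CHD4 lists thus lay above the NPC list, and the same exact test between the ESC replicates gave p = 0.555. Against NPCs, Fisher's exact p was 0.00662 for replicate 1 and 0.0136 for replicate 2, and the adjusted p was 0.138 and 0.226. In a window of 100 kb, with 10 and 14 ESC peaks and 0 NPC peaks, the larger of both adjusted p-values of this test was 0.0360. Sox1 was then among the 442 genes over the genome that were called lower in NPCs, against 92 in the window of 50 kb. In that wider window 12 genes were also called between the ESC CHD4 replicates. Chromosome 8 held 8.12% and 7.70% of ESC CHD4 peaks and 5.10% of NPC CHD4 peaks, and against the peaks of chromosome 8 alone the adjusted p was 0.370 and 0.547. The nearest NPC CHD4 peak was 322 kb from the Sox1 start and the nearest NPC MBD3 peak 601 kb.

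The ESC peaks at Sox1 formed 11 regions, from 3.8 kb upstream to 44.3 kb downstream of the start. Directly downstream of the start, in chr8:12395500-12395954, MBD3 of replicate 1 (value 10.5), CHD4 of replicate 1 (7.46), SIN3A (12.3) and SIN3A with spike-in (9.47) met in a single region. CHD4 of replicate 2 had separate peaks on either side of it, 0.344 kb upstream and 1.15 kb downstream of the start. Another cluster at 5.3 to 5.8 kb (chr8:12400698-12401392) held MBD3 of replicate 1 (6.06), CHD4 of replicate 2 (7.77 and 3.02), SIN3A with spike-in (12.1) and SIN3A without spike-in (37.7, in the top 2.15% of that list). Farther away, at about 33.1, 36.3 and 44.3 kb, CHD4 peaks of both ESC replicates overlapped and SIN3A had 0 peaks. The last of these, with values of 6.66 in replicate 1 and 12.1 in replicate 2, is the Sox1 sequence printed above.

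**Figure D2:**
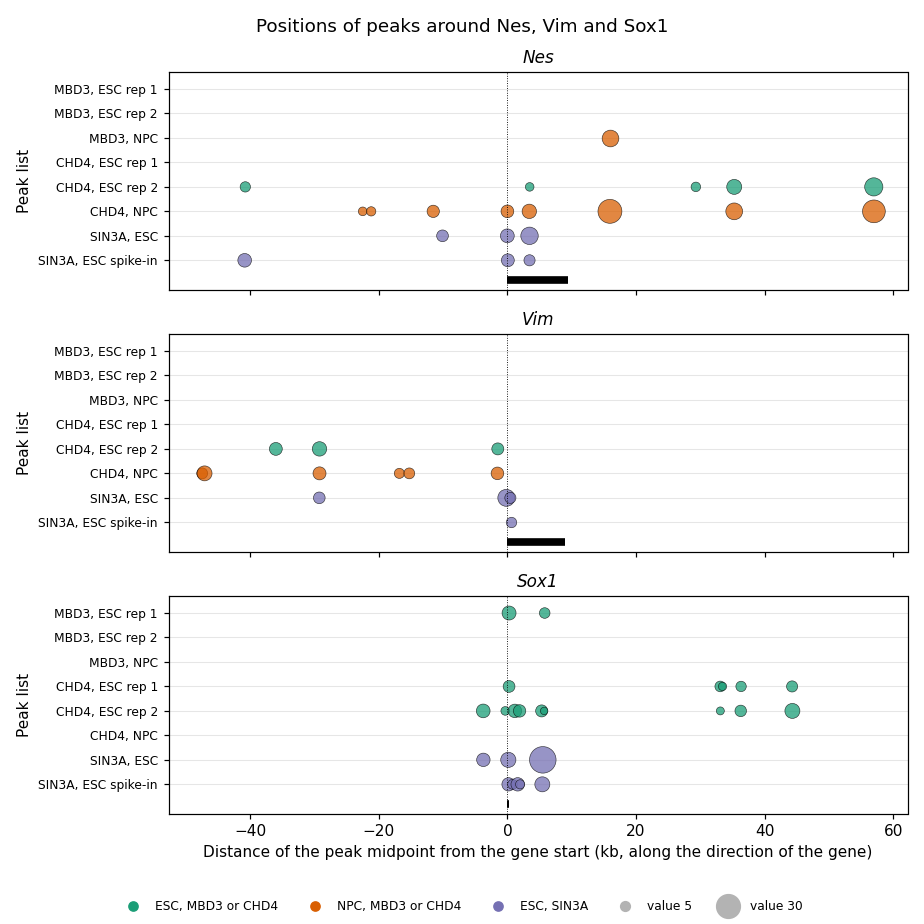
Peak positions at Nes, Vim and Sox1, with the distance of each peak midpoint from the gene start on the x axis (kb) and 1 row per list. The area of a circle is proportional to the authors' value, green marks MBD3 and CHD4 in ESCs, orange marks MBD3 and CHD4 in NPCs and purple marks SIN3A in ESCs, the black bar is the gene body (for Sox1 the start only), and the ZFP296 list, with 0 peaks, is not drawn. The NPC MBD3 and CHD4 peaks 15.9 kb downstream of the Nes start have no counterpart in the ESC rows, and the rows of NPCs are empty at Sox1.

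At the other genes peaks were few. Pax6 (chr2:105509053-105543317, + strand), the paired-box factor of forebrain and eye progenitors, had 1 MBD3 peak and 2 CHD4 peaks, all in replicate 2 of ESCs. The MBD3 peak (value 6.58) and the higher CHD4 peak (14.5, in the top 14.9% of the list) overlapped each other and a SIN3A peak of the spike-in preparation (6.74), in an intron 8.7 kb from the Pax6 start that lies within the start window, 1 kb upstream to 5 kb downstream, of an annotated Pax6 transcript. The other CHD4 peak (5.13) lay 22.6 kb from the Pax6 start in an untranslated part of a Pax6 transcript. The nearest NPC peaks of CHD4 and MBD3 were 93.2 and 93.1 kb from the gene.

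Sox9 (chr11:112643538-112649074, + strand), the factor of neural stem cells and glia, had 1 MBD3 peak in ESC replicate 2, 8.94 kb upstream of its start with a value of 12.8, and 1 CHD4 peak in NPCs, 42.1 kb downstream with a value of 6.20. Both lay in intergenic sequence, and the NPC peak ranked in the top 80.7% of its list. Just outside the window, the nearest ESC CHD4 peaks were 52.0 kb (replicate 1, value 5.47) and 52.3 kb (replicate 2, value 13.9) from Sox9. The latter ranked in the top 16.7% of its list. Olig1 (chr16:91270014-91272184, + strand) had an MBD3 peak of ESC replicate 1 (6.90) in its coding exon, 0.591 kb from the start. The same peak fell into the window of its neighbour Olig2 (chr16:91225795-91228922, + strand), 44.8 kb from the Olig2 start, and is counted for both. A CHD4 peak of ESC replicate 2 (4.78) lay 39.5 kb downstream of the Olig1 start. Fabp7 (chr10:57504687-57508256, + strand) had 0 peaks in the 9 lists, with the nearest CHD4 peaks at 154 kb in ESC replicate 2 and 231 kb in NPCs. A window without a peak holds no position that passed the authors' threshold in that list, which does not show that the protein was absent.

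The peaks were next compared by position. Of the 16 NPC peaks at the 8 genes, 8 lay in the start window of a gene, 2 of them of one of the 8 genes (both at Nes), 6 were intergenic and 2 intronic. Of the 49 ESC peaks, SIN3A included, 29 lay in a start window, 23 of them at one of the 8 genes. CHD4 replicate 2 supplied 10 of the 29 and 6 of the 23. SIN3A supplied 6 without and 9 with spike-in of the 29, and 5 and 8 of the 23. Among MBD3 peaks of ESC replicates 1 and 2, 2 of 3 and 1 of 2 lay in a start window. Among CHD4 peaks, 1 of 5 and 10 of 20 did. The share of all peaks in a start window is not given here. A SIN3A peak of ESCs overlapped 13 of the 30 ESC MBD3 and CHD4 peaks at these genes (43.3%), beside 25.1% of all peaks in these 4 lists. Without CHD4 replicate 2 it overlapped 4 of 10, beside 29.5% of all. In NPCs it overlapped 3 of the 16 peaks (18.8%), at the Nes start, in the Nes intron and at the start of Trdmt1, beside 11.6% of all NPC peaks. The shares were thus higher in ESCs than in NPCs over all peaks as well. Merged over the lists, of which 7 are from ESCs and 2 from NPCs, the windows held 37 regions. ESC lists alone gave 22 (59.5%), NPC lists alone 9 (24.3%) and both 6 (16.2%), beside 67.2%, 26.1% and 6.63% of the 62184 merged regions of the genome. Of the 6 regions with peaks of both cell types, 4 were at Nes and 2 at Vim. The region at the Nes start had only SIN3A peaks from ESCs. Without CHD4 replicate 2 the windows held 32 regions, 17, 12 and 3 in these classes (53.1%, 37.5% and 9.38%), beside 57.9%, 35.6% and 6.5% of all regions. In those 3 regions, at the Nes start, in the Nes intron and at the Trdmt1 start, the ESC peaks left were of SIN3A, and none was of MBD3 or CHD4.

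The AP-1 string, which is bound by FOS and JUN dimers, was found in the central 200 bases of 6 of the 15 NPC CHD4 peaks, 3 at Nes, 2 at Vim and 1 at Sox9, and in 42.3% of all NPC CHD4 peaks. The NPC MBD3 peak at Nes had it, as did 47.6% of that list. In ESC CHD4 replicate 2 the string was found in 2 of 20 peaks at these genes and 4.68% of the list, and in replicate 1 in 0 of 5 and 4.55%. The members' share of NPC CHD4 peaks with the string was thus close to that of their list. An E-box was present in 4 of the 15 NPC CHD4 peaks (16.7% of the list) and in 5 of the 20 peaks of ESC replicate 2 (12.1%). The SOX string was present in 1 NPC CHD4 peak, next to Vim, and in 3.75% of the list, and octamer and NFI strings were present in 0 of the 15, beside 0.806% and 0.0297% of the list.

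Further marker genes were counted in the same way. Of 17 other neural stem cell genes, 0 were called for CHD4 or MBD3 in either direction. Their windows held 38, 95 and 45 CHD4 peaks in ESC replicate 1, ESC replicate 2 and NPCs and 8, 27 and 9 MBD3 peaks. The largest NPC sums of MBD3 and CHD4 peaks in this list were at the RNA-binding protein genes Msi2 (13) and Msi1 (12), at Cd44 (9), the hyaluronan receptor gene, and at Hes1 (7), a Notch target. Msi1 had 14, 20 and 9 CHD4 peaks in ESC replicate 1, ESC replicate 2 and NPCs. Cd44 had 1, 0 and 7 CHD4 peaks, with adjusted p of 0.840 and 0.0807 by Fisher's exact test, and 0, 0 and 2 MBD3 peaks.

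Genes of neurons (5), astrocytes (3) and oligodendrocytes (3) gave 0, 0 and 1 calls for CHD4. The call was Mog, a myelin glycoprotein gene, with 16, 27 and 0 CHD4 peaks and adjusted p of 7.99e-05 and 0.00136. MBD3 peaks there numbered 5, 6 and 0. These are peaks within 50 kb of Mog, and the other genes in that window were not examined here. Of 6 pluripotency genes, 5 were called lower in NPCs (Pou5f1, Nanog, Esrrb, Tbx3 and Zfp42), beside 0.613% of the 15006 genes tested against both replicates. The windows of all 6 together held 81, 124 and 7 CHD4 peaks and 20, 30 and 0 MBD3 peaks. Klf4, with 1, 7 and 2 CHD4 peaks, was not called. With the same window, 5 of the 6 pluripotency genes and 0 of the 8 progenitor genes were thus called. The gene sets were not equally open to a call. The called pluripotency genes had 11 to 22 CHD4 peaks in ESC replicate 1 and 16 to 30 in replicate 2. Among the progenitor genes, Fabp7, Olig2, Pax6 and Olig1 had no peak to test against both replicates, and Sox9 had 1 NPC peak.

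**Figure D3:**
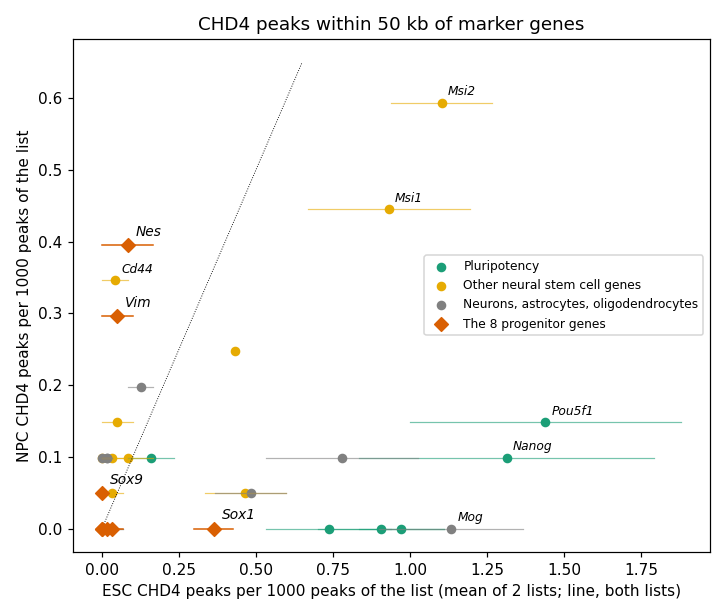
CHD4 peaks within 50 kb of each gene per 1000 peaks of the list, in NPCs (y axis) against the mean of the 2 ESC lists (x axis), for the 8 progenitor genes (orange diamonds) and the 34 further marker genes (circles). Each horizontal line joins both ESC replicates and the dotted line marks equal shares. Nes (0.395), Vim (0.297) and Cd44 lie above the dotted line. Sox9 and several further genes, among them Tnc, Prom1, Gfap, S100b, Map2 and Sox10, also lie above it. Sox1, with 0 in NPCs, lies on the x axis together with several pluripotency genes and Mog.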

How the data were processed

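Peak lists of 9 of the 36 samples were used, and the other 27 (inputs, histone marks, knockout clones and further spike-in samples) were not analysed here. The authors aligned reads to mm9 with BWA, kept uniquely mapped reads without duplicates and called peaks for each sample against input with MACS2 (2.0 in the submitters' processing notes), with each replicate on its own. The deposited peak value is on a −log10 scale, of a p-value or of a q-value, and the sources used here do not say which. Peak names give a threshold of 0.001 in 8 lists and 0.0001 in SIN3A without spike-in, and mention normalization to a fixed read number in 7 lists (neither SIN3A list does). Read counts per peak were not used here, so the depth behind each peak is unknown and levels of binding were not compared.

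Samples were grouped by their titles, and the spike-in SIN3A sample formed a group of its own. Whether the ESC replicates came from separate cultures is not given in the labels. Gene bodies were those of 22367 protein-coding genes of GENCODE vM1 on NCBIM37 (mm9), with Sox1 added through the RefSeq promoter sequence, and Map2 taken as Mtap2. Peak coordinates are 1-based, and 0 chromosomes had a peak beyond the reference length. Genes were tested with two-sided Fisher's exact tests and Benjamini-Hochberg adjustment. The procedure was also run on simulated lists of independent counts, in which the changed genes were drawn from those with more peaks. That simulation does not cover clustered peaks or genes with few peaks. Overlap meant at least 1 bp. The members and lists were chosen with earlier results of these data known, and the further marker lists are described by counts. Peaks named are the highest of each list at a member and regions of joint NPC binding, with others added where a region is described, and examples from the further lists are those with the largest NPC sums. Alternatives changed the window, the value threshold, the list sizes, the assignment of peaks and the ESC lists. Python 3.11.15, numpy 2.4.6, scipy 1.17.1, pandas 2.3.3, pyfaidx 0.9.0.4 and matplotlib 3.10.9 were used.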

Additional observations from a re-analysis of the deposited data

How the results depend on the processing

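With 1 NPC list per subunit, the tests cover the counting error of peaks and not the spread between NPC cultures. No paired analysis was possible because the NPC lists carry no replicate number. For MBD3, with too few peaks at these genes for most to be tested against both replicates, 0 of the 8 were called under each alternative. For CHD4 1 (Sox1) was called with a window of 100 kb and 0 under each other alternative. Between ESC replicates, 0 were called under each alternative that could be run. The number of the 8 genes with CHD4 peaks in NPCs only, 1 in the report beside 8.06% of all genes, was 0 with windows of 20 kb (8.99% of all genes) or 100 kb (6.61%), with a value of at least 10 (11.8%) and with lists cut to equal size (11.7%), was 3 when ESC sites were limited to those of both replicates (28.8%), and ranged from 1 (8.61%, without replicate 1) to 3 (24.5%, without replicate 2) when an ESC replicate was left out. The number with CHD4 peaks in ESCs only, 3 in the report, was 1 with ESC sites in both replicates (7.69% of all genes, against 18.8%) and from 1 (9.54%) to 3 (18.4%) with an ESC replicate left out. It was 2 with a window of 20 kb (23.4% of all genes) and with a value of at least 5 (19.3%) or 10 (22%). Lists cut to equal size (21.2%) and the nearest gene (20.7%) also gave 2. For MBD3, the number in NPCs only (1) was 0 when each peak went to its nearest gene (3.77% of all genes, against 6.81%). The number in ESCs only (5) was 2 with a value of at least 10 (14.9% of all genes, against 27.2%), 3 with the nearest gene (14.2%), 0 with ESC sites in both replicates (7.23%), and from 2 (25%) to 3 (11.3%) with an ESC replicate left out. It was 4 with windows of 20 kb (19%) or 100 kb (33%) and with lists cut to equal size (16%). The number of ESC MBD3 and CHD4 peaks at the 8 genes with a SIN3A peak, 13, was 4 without ESC CHD4 replicate 2, an alternative added after the data were seen. Assigned to the nearest gene body, peaks did not go to Sox1, whose placed start lies inside Gm5607, and Sox1 had 0 in every MBD3 and CHD4 list. The NPC minus mean ESC difference in CHD4 peaks per 1000 of the list was 0 at Sox1 with the nearest gene and negative there under the other alternatives. At Nes and Vim this difference kept its positive sign under all alternatives but not its size. With the nearest gene it fell from 0.312 to 0.0822 at Nes and from 0.246 to 0.0327 at Vim (1 NPC peak and 1 peak of ESC replicate 2), at Vim it was 0.0735 with a value of at least 10, and with a window of 20 kb it was 0.164 at Nes and 0.132 at Vim. Over all genes, 9 were called higher and 92 lower for CHD4, which became 2 and 11 with a window of 20 kb, 39 and 442 with 100 kb, 0 and 1 with a value of at least 10, 0 and 4 with equal lists, 2 and 18 with the nearest gene, 0 and 52 around gene starts, 76 and 126 without ESC replicate 1, 11 and 352 without replicate 2, 0 and 207 with ESC sites in both replicates, and 12 and 63 within chromosomes. Between CHD4 replicates the count of 0 genes became 12 with 100 kb and 2 with a value of at least 5, and between NPCs and ESCs 1 gene in place of 0 was called higher for MBD3 without ESC replicate 1. The causes of these changes were not tested.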

Other observations

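Beyond the 50 kb window, peaks of ESC lists gathered between 100 and 115 kb downstream of the Sox1 start, a stretch chosen after the positions of the peaks were seen. It held 4 MBD3 peaks in each ESC replicate, 5 and 7 CHD4 peaks in replicates 1 and 2, 2 ZFP296 peaks, and 4 and 2 SIN3A peaks without and with spike-in, while NPC MBD3 and CHD4 had 0. The highest values were 17.1 and 22.7 for MBD3, 23.5 and 38.0 for CHD4, 10.7 for ZFP296, and 33.2 and 18.3 for SIN3A. The CHD4 peak with the value of 38.0 ranked in the top 0.440% of its list.

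Outside the windows of the 8 genes, the protein-coding genes whose peak counts over the 9 lists were closest to the mean of the 8 were Fam126b, Ttll4 and Rad21l, each at a Euclidean distance of 0.754 on the log2(1 + count) scale. With 27 genes at this distance or below it, the order among them carries no information. Each of the 3 had 2 CHD4 peaks in ESC replicate 2, 1 in NPCs and 1 SIN3A peak in either preparation.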
